A study of Mus musculus with 8 samples.

Results

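Transcripts of 8 TALE homeobox genes, which encode DNA-binding partners of HOX proteins, were described in 8 bulk RNA-seq libraries of the mouse embryonic nervous system. The genes were taken by name and comprise 3 MEIS genes (Meis1, Meis2, Meis3), 3 PBX genes (Pbx2, Pbx3, Pbx4) and 2 PREP genes (Pknox1, Pknox2), out of 36317 gene symbols in the table. Each of 4 groups held 2 libraries. At embryonic day (E) 13.5 the tissues were forebrain and spinal cord, both wild-type (wt). At E15.5 they were wt forebrain and forebrain of EED-cKO embryos, in which a Sox1-dependent Cre removes Eed, whose protein is needed for the histone H3 methyltransferase activity of the Polycomb complex PRC2. Sox1 is a gene of the neural plate and of neural progenitors, so cells of other origin in the dissected tissue are not expected to lose Eed. The labels do not say whether the wt embryos carried a Cre or a floxed allele, or whether a library came from 1 embryo or a pool, so the error behind each p-value is that between libraries, which may be technical.

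TALE proteins carry a homeodomain with a loop of extra residues between its first and second helix. PBX proteins bind DNA together with HOX proteins through a short tryptophan-containing motif, which HOX proteins of the anterior and middle paralogue groups carry, while MEIS proteins can also pair with HOX proteins of the posterior groups. MEIS and PREP proteins bind PBX proteins directly and hold them in the nucleus. In the embryo, Hox genes are active in hindbrain and spinal cord and silent in forebrain, where Polycomb complexes keep them repressed, so the libraries allow the question of whether the cofactor transcripts are present where Hox genes are on. Hox genes were on in the wt spinal cord and in the EED-cKO forebrain.

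Values are RPKM, a read density scaled for gene length and for library size, which the authors gave in steps of 0.1. The E15.5 columns follow another order of gene names than the E13.5 columns and were matched to the names sorted alphabetically. All 8 cofactor genes have the same row in both orders, whereas 36 of 39 Hox genes change row. For a gene that changes row, the deposited order pairs its name with other E15.5 values, so its EED-cKO change rests on the match. Over all rows, the wt forebrain columns of both ages had an r of 0.948 in the matched order and 0.76 in the deposited order. Around each cofactor gene, the wt forebrain columns of both ages had an r of 0.913 to 0.941 across 201 rows of the matched order, and with r of 0.190 to 0.244 when the E15.5 rows were shifted by 1. These r values are across genes, which are not independent replicates. The RPKM of a library summed to between 378294 and 397319.5 at E13.5 and to between 761647 and 843296.5 at E15.5, so levels were compared only within an age, and only shares, ratios and ranks within a library were read across ages. Depth per library is unknown, as no counts were given. Eed was at 10 and 10.6 RPKM in EED-cKO against 25.8 and 27.9 in wt E15.5 forebrain. As a check of the labelled tissue, 6 forebrain factors summed to 471.9 and 452.1 RPKM in E13.5 forebrain, 5 and 6.2 in spinal cord, and 428 and 431.9 in wt E15.5 forebrain. In EED-cKO forebrain the same sum was 132.3 and 115.9 RPKM.

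All 8 cofactor genes were detected in every library, at 6.5 to 151.5 RPKM, also where Hox genes were silent. Their summed level was 304.1 and 300 RPKM in E13.5 forebrain and 403.7 and 400.6 in spinal cord, so the spinal cord libraries were higher without overlap. At E15.5 it was 363.3 and 349.1 RPKM in wt and 361.3 and 360.6 in EED-cKO forebrain, and these groups overlapped. The 39 Hox genes summed to 0.8 and 0.3 RPKM in E13.5 forebrain and 1.1 and 0.6 in wt E15.5 forebrain, with no Hox gene at 1 RPKM in any of these 4 libraries. In spinal cord they summed to 1820.5 and 1944.8 RPKM, and in EED-cKO forebrain to 522.8 and 468.8. Hox transcripts per cofactor transcript, as a ratio of the sums within a library, were thus 4.51 and 4.85 in spinal cord and 1.45 and 1.3 in EED-cKO forebrain, against at most 0.00303 in the 4 wt forebrain libraries. The summed cofactor level moved far less than the Hox level. These sums carry no test, since a two-sided exact permutation test of 2 libraries against 2 cannot go below p = 0.33.

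**Figure D1:**
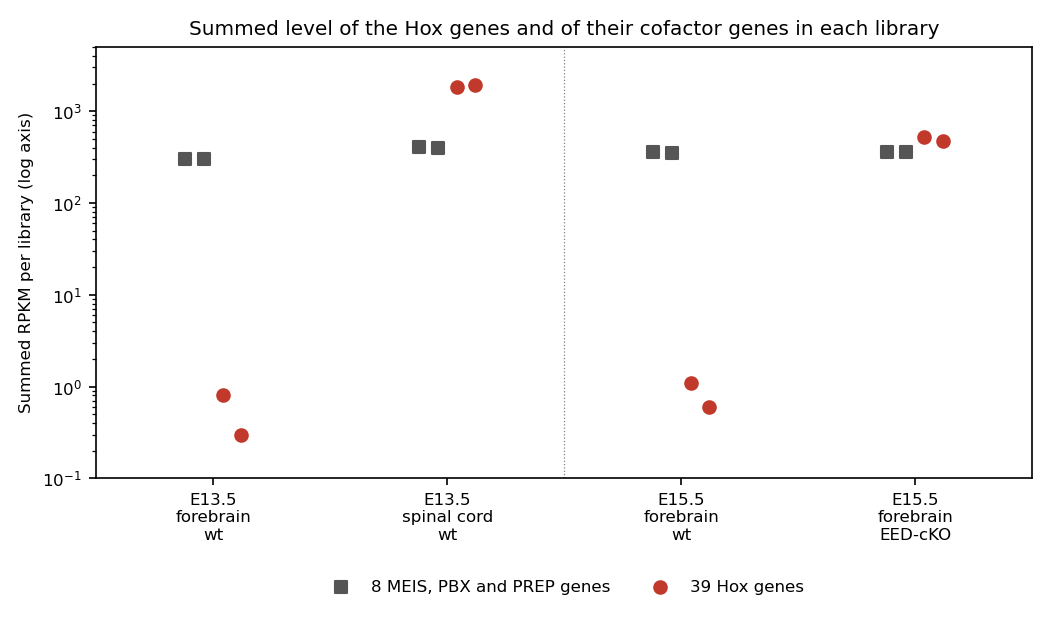
Summed RPKM (log axis) of the 8 cofactor genes (squares) and the 39 Hox genes (circles) in each library, by group, with the E13.5 and E15.5 libraries divided by a dotted line. The squares lie between 300 and 403.7 RPKM at E13.5 and between 349.1 and 363.3 at E15.5, while the circles lie at 1.1 RPKM or below in wt forebrain and at 468.8 or above in spinal cord and EED-cKO forebrain.

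The Hox genes that were on differed between the 2 tissues. Groups 9 to 13 held 69.7% and 68.2% of the Hox sum in EED-cKO forebrain and 30.4% and 20.9% in spinal cord. The Hox genes with the highest mean were Hoxc12 (74.8 and 64.9 RPKM), Hoxc10 (53.5 and 46.4) and Hoxc13 (48.4 and 40.5) in EED-cKO forebrain. In spinal cord they were Hoxb8 (367.3 and 408.4 RPKM), Hoxb9 (268.2 and 318.1) and Hoxb6 (110.7 and 130.2). Hoxc12, Hoxc10 and Hoxc13 were seen almost in 1 spinal cord library alone, at 17.4, 45.2 and 3.3 RPKM in replicate 1 against 0, 0.2 and 0 in replicate 2.

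Differences between groups were tested with limma on log2(RPKM + 1) in 1 fit of all 8 libraries, and a gene is called where its p, after Benjamini-Hochberg adjustment over 17022 tested genes, is under 0.05. Each change is a difference of mean log2(RPKM + 1), given with its standard error (SE). The SE pools the spread of all 4 groups, so a gene has the same SE in both comparisons. Between wt E13.5 spinal cord and forebrain, 7 of the 8 cofactor genes were called, 5 higher and 2 lower, where 45.7% of all tested genes were called (21.8% higher and 23.9% lower). Their median change was 0.72, against 0.00 over all tested genes. Between EED-cKO and wt E15.5 forebrain, 5 were called, 3 higher and 2 lower, where 46.9% of all genes were called (30.2% higher and 16.7% lower). Their median change was 0.07, against 0.08 over all tested genes. In these bulk samples, fewer cells of a type and less RNA per cell cannot be told apart. The share of called cofactor genes in EED-cKO was near that of all genes, and their changes were of mixed sign. Between the tissues the groups did not overlap for any of the 8 genes, 5 higher and 3 lower, as for 76.3% of all genes (37% higher and 39.3% lower). In EED-cKO they did not overlap for 7 of 8, 4 higher and 3 lower, as for 70.3% of all genes (42.6% higher and 27.6% lower).

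**Figure D2:**
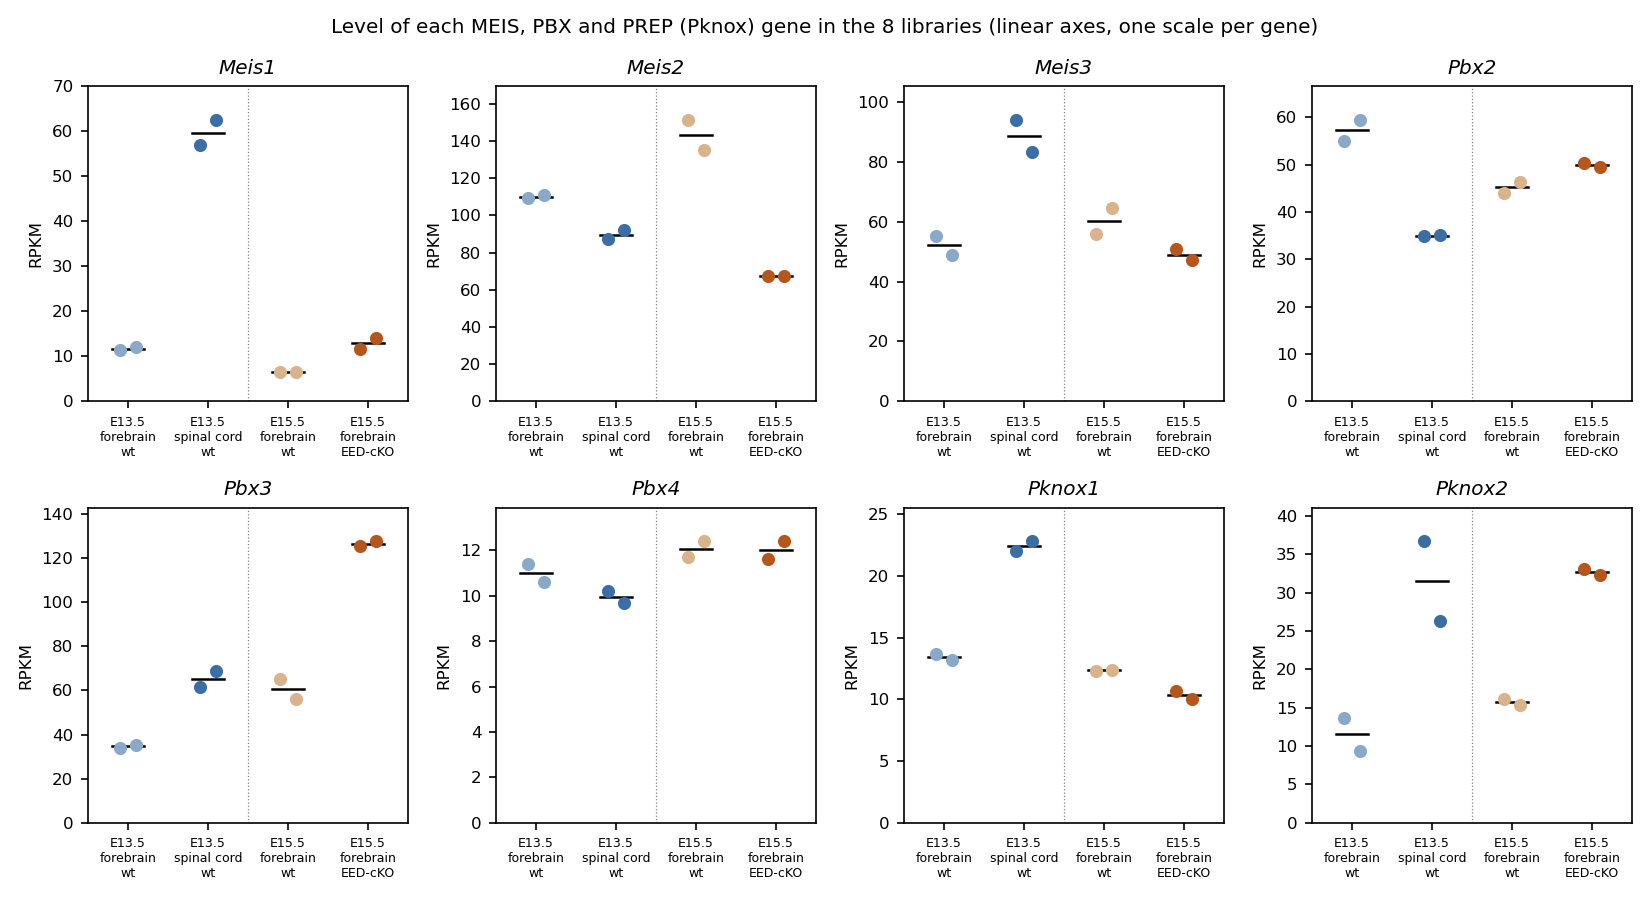
RPKM of each of the 8 genes in each library (points, n = 2 per group) with the group mean (line), on linear axes that start at 0 and differ between genes; a dotted line divides the ages. Meis1, Pbx3 and Pknox2 are higher in spinal cord than in forebrain at E13.5 and higher in EED-cKO than in wt at E15.5, Meis2 is lower in both, and Pbx4 lies between 9.7 and 11.4 RPKM at E13.5 and between 11.6 and 12.4 at E15.5.

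Meis1, a MEIS gene with known roles in blood stem cells and limb and spinal cord patterning, had the largest regional difference of the 8 genes. It was at 56.8 and 62.5 RPKM in spinal cord and at 11.3 and 12.1 in E13.5 forebrain. Spinal cord was 5.1-fold higher by the group means (log2 2.25 ± 0.099 SE, limma adjusted p = 8.3e-06), and 99.2% of tested genes had a lower change. At E15.5 it was at 11.7 and 14.1 RPKM in EED-cKO forebrain and at 6.5 in both wt libraries. EED-cKO was 1.98-fold higher (log2 0.88 ± 0.099, limma adjusted p = 5.9e-04). Meis1 had the lowest level of the 8 genes in wt E15.5 forebrain, where it stood between the 38.8 and 40.5 percentile of tested genes. The gene lies on chromosome 11 (GRCm38, GENCODE M21, 18879817 to 19018985, minus strand), and its exons overlap those of the predicted genes Gm16140 and Gm37818. In spinal cord it stood between the 92.1 and 93.1 percentile. In EED-cKO forebrain, at 47.9 to 51.6, it stayed near the middle of the tested genes.

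The DNA before the Meis1 start site is shown with that of Pbx2, since in the RefSeq promoter table (GRCm38.p6) these are the members with the longest stretches clear of annotated exons, 234 and 250 bases. Polycomb complexes of vertebrates are known to collect at DNA rich in CpG, so CpG dinucleotides are in capitals, 5′ to 3′ on the strand of the gene. The Meis1 stretch is chr11:19018986-19019219 on the minus strand, directly upstream of the first exon. The Pbx2 stretch is chr17:34592009-34592258 on the plus strand, upstream of the RefSeq start and within a longer gene model of GENCODE.
Meis1: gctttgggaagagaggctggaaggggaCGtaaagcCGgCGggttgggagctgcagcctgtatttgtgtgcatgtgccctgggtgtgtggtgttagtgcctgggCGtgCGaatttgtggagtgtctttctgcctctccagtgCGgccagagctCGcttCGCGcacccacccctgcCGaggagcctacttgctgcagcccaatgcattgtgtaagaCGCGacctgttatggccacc
Pbx2: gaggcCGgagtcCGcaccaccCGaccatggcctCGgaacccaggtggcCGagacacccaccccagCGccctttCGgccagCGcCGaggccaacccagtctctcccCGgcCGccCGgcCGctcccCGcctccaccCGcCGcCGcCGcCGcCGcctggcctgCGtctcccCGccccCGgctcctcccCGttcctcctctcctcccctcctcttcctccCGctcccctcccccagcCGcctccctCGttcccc
Over 250 bases, the Meis1 promoter held 13 CpG, more than 68.5% of 32851 promoters in the table, and the Pbx2 promoter 27, more than 91.4%. The promoters of Meis3 and Pbx4 held 12 each and that of Meis2 held 7, more than 53.7% of promoters. These 5 of the 8 genes had a promoter in the table. Neither strand of the 5 stretches held TGACAG, a sequence bound by MEIS and PREP, TGATTNAT, bound by PBX with HOX, or the composite PBX with MEIS or PREP motif. The composite motif contains TGACAG. Of all promoters, 15.9%, 2.82% and 0.198% held these letters. A match is a description of the letters only.

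Meis2, known as a factor of the ganglionic eminences and striatum, was the most abundant of the 8 genes in wt forebrain. The gene lies on chromosome 2 (115863064 to 116065839, minus strand). EED-cKO forebrain had 67.3 and 67.5 RPKM of it, and wt E15.5 forebrain 151.5 and 135.1. The groups were far apart, and EED-cKO was at 0.47 of the wt mean (log2 −1.07 ± 0.069, limma adjusted p = 8.2e-05). Only 1% of tested genes had a lower change. At E13.5 it was at 109.5 and 110.8 RPKM in forebrain and 87.2 and 92.1 in spinal cord, lower by less (log2 −0.29 ± 0.069, limma adjusted p = 0.0118). That regional call was lost without forebrain replicate 1 (adjusted p = 0.0506) or 2 (0.0663), without spinal cord replicate 1 (0.0862), and after quantile normalization (0.0571). In spinal cord Meis2 still stood between the 95.8 and 96.2 percentile of tested genes.

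Meis3, the third MEIS gene, which is known to act in hindbrain patterning of frog and fish embryos, was at 94.2 and 83.3 RPKM in spinal cord and 55.4 and 49 in E13.5 forebrain. It was higher in spinal cord (log2 0.75 ± 0.10, limma adjusted p = 0.00105). In EED-cKO forebrain it was at 51 and 47.1 RPKM against 55.9 and 64.7 in wt. These values did not overlap but the difference was not called (log2 −0.29 ± 0.10, limma adjusted p = 0.0549). It was called, again as lower, after median ratio scaling (log2 −0.41, adjusted p = 0.0155), without wt E15.5 replicate 1 (−0.39, 0.0332), with a filter of 5 RPKM (0.0476) and with same-row genes only (0.0447).

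Pbx3, a PBX gene known for roles in hindbrain and spinal cord neurons, rose in both comparisons by similar amounts. In EED-cKO forebrain it was at 125.6 and 127.7 RPKM against 65.3 and 56.3 in wt, or 2.08-fold higher (log2 1.05 ± 0.087, limma adjusted p = 2.0e-04). In spinal cord it was at 61.7 and 68.8 RPKM against 34.1 and 35.4 in forebrain, or 1.88-fold higher (log2 0.89 ± 0.087, limma adjusted p = 2.3e-04). The gene lies on chromosome 2 (34171457 to 34373142, minus strand). It was the most abundant of the 8 genes in EED-cKO forebrain, between the 94 and 94.2 percentile of tested genes.

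Pbx2, a broadly expressed PBX gene, went the other way between the tissues. It was at 34.9 and 35.1 RPKM in spinal cord against 55 and 59.5 in forebrain (log2 −0.69 ± 0.062, limma adjusted p = 1.5e-04). In EED-cKO forebrain it was at 50.3 and 49.5 RPKM against 44 and 46.4 in wt, a difference that was not called (log2 0.14 ± 0.062, limma adjusted p = 0.103). Exons of Pbx2 overlap those of Gpsm3, which was at 1.7 to 4.6 RPKM in the 8 libraries, and unstranded reads cannot tell overlapping genes apart. Pbx4, the least studied PBX gene, was at 10.2 and 9.7 RPKM in spinal cord and 11.4 and 10.6 in E13.5 forebrain (log2 −0.13 ± 0.078, limma adjusted p = 0.212). At E15.5 it was at 11.6 and 12.4 RPKM with Eed deleted and 11.7 and 12.4 in wt (log2 −0.01 ± 0.078, limma adjusted p = 0.975). It was called in neither comparison, and in EED-cKO its groups overlapped.

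The PREP genes are named Pknox1 and Pknox2, and their proteins take the place of MEIS in complexes with PBX. Pknox2 lies on chromosome 9 (36890982 to 37147407, minus strand) and Pknox1 on chromosome 17 (31564734 to 31607693, plus strand). Exons of Pknox1 overlap those of the annotated gene AC166172.4. Pknox2, which is expressed more narrowly than Pknox1 in the mouse, was at 33.1 and 32.3 RPKM in EED-cKO forebrain against 16.1 and 15.3 in wt. It was 2.08-fold higher (log2 1.01 ± 0.19, limma adjusted p = 0.00493). In spinal cord it was at 36.7 and 26.3 RPKM against 13.7 and 9.4 in forebrain, or 2.73-fold higher (log2 1.38 ± 0.19, limma adjusted p = 0.00113). The SE of Pknox2, on the log2 scale, was the largest of the 8 genes. It is pooled over both ages, and the replicates of Pknox2 lay further apart at E13.5 than at E15.5.

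Pknox1 was at 22 and 22.8 RPKM in spinal cord against 13.7 and 13.2 in forebrain, or 1.67-fold higher (log2 0.70 ± 0.068, limma adjusted p = 2.3e-04). In EED-cKO forebrain it was lower, at 10.7 and 10 RPKM against 12.3 and 12.4 in wt (log2 −0.23 ± 0.068, limma adjusted p = 0.0266). That call was lost without EED-cKO replicate 1 (adjusted p = 0.0524) or 2 (0.141), without spinal cord replicate 1 (0.0533) or 2 (0.0532), with only the 4 libraries compared (0.119) and with a replicate block (0.075).

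**Figure D3:**
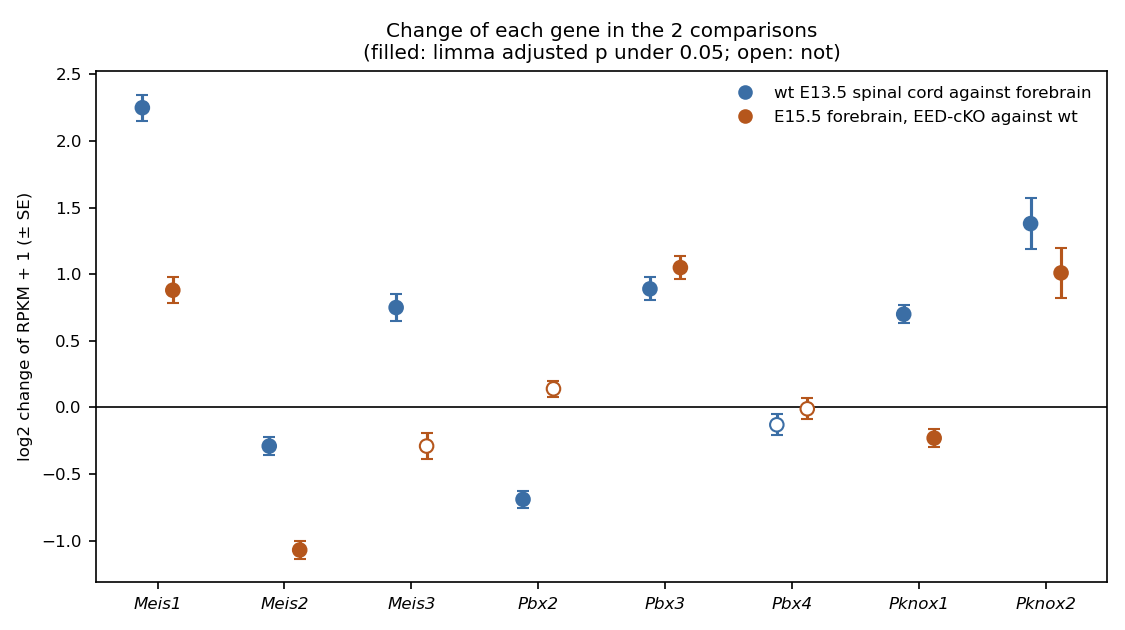
Log2 change of RPKM + 1 (points, with SE bars) of each gene in wt E13.5 spinal cord against forebrain (blue) and in E15.5 forebrain of EED-cKO against wt (orange); filled points have a limma adjusted p under 0.05. Meis1, Pbx3 and Pknox2 lie above 0 in both and Meis2 below 0 in both, while Pknox1 lies above 0 between the tissues and below 0 in EED-cKO.

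The knockout change and the regional change of each gene come from separate libraries, and their difference was tested in the same fit, a test added after the values were seen. Age and tissue set the comparisons apart as well as genotype. The difference was called for 5 of the 8 genes, where 36.1% of all tested genes were called. Meis1 rose by less in EED-cKO forebrain than it did between forebrain and spinal cord (difference −1.37 ± 0.14, limma adjusted p = 5.4e-04). Pknox1 (−0.93 ± 0.096, adjusted p = 5.7e-04) and Meis3 (−1.04 ± 0.15, adjusted p = 0.0019) were higher in spinal cord without being higher in EED-cKO. Meis2 fell further in EED-cKO than in spinal cord (−0.78 ± 0.098, adjusted p = 0.00121), and Pbx2 differed through its lower spinal cord level (0.83 ± 0.087, adjusted p = 6.0e-04). No difference was called for Pbx3 (0.16 ± 0.12, adjusted p = 0.346), Pknox2 (−0.36 ± 0.27, adjusted p = 0.34) or Pbx4 (0.13 ± 0.11, adjusted p = 0.415). Pknox2 was called with a replicate block (adjusted p = 0.0494). Of the 8 genes, 3 rose in both comparisons and 1 fell in both. Over all tested genes, 20.2% were called in both in the same direction.

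The make-up of the cofactor transcripts differed between groups, as shares of the summed RPKM of the 8 genes within each library, which no scaling of a whole library alters. A further PBX gene is not analysed here, so the PBX share is that of Pbx2, Pbx3 and Pbx4 only. The 3 MEIS genes held 57.9% and 57.3% in E13.5 forebrain, 59% and 59.4% in spinal cord, and 58.9% and 59.1% in wt E15.5 forebrain. In EED-cKO forebrain they held 36% and 35.7%, while the 3 PBX genes held 51.9% and 52.6% against 33.3% and 33% in wt. The MEIS share was thus close to equal in the 3 wt groups, and the PBX share was the larger one in both EED-cKO libraries alone. The PREP share was 12.1% and 11.7% in EED-cKO against 7.82% and 7.93% in its wt. At E13.5 it was 14.5% and 12.3% in spinal cord against 9.01% and 7.53% in forebrain.

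Within the subfamilies, Meis1 made up 23.8% and 26.3% of the MEIS sum in spinal cord and 6.41% and 7.04% in E13.5 forebrain. At E15.5 its part was 9% and 11% with Eed deleted and 3.04% and 3.15% in wt. Spinal cord held Meis2 (36.6% and 38.7%) and Meis3 (39.5% and 35%) at like shares, whereas Meis2 led in all 4 wt forebrain libraries with 62.1% to 70.8%. Pbx2 was the leading gene of the 3 PBX genes in E13.5 forebrain (54.7% and 56.4%), and Pbx3 led in spinal cord (57.8% and 60.6%). Pbx3 held 67% and 67.4% in EED-cKO against 54% and 48.9% in wt E15.5 forebrain. With 2 libraries a group these shares carry no test.

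**Figure D4:**
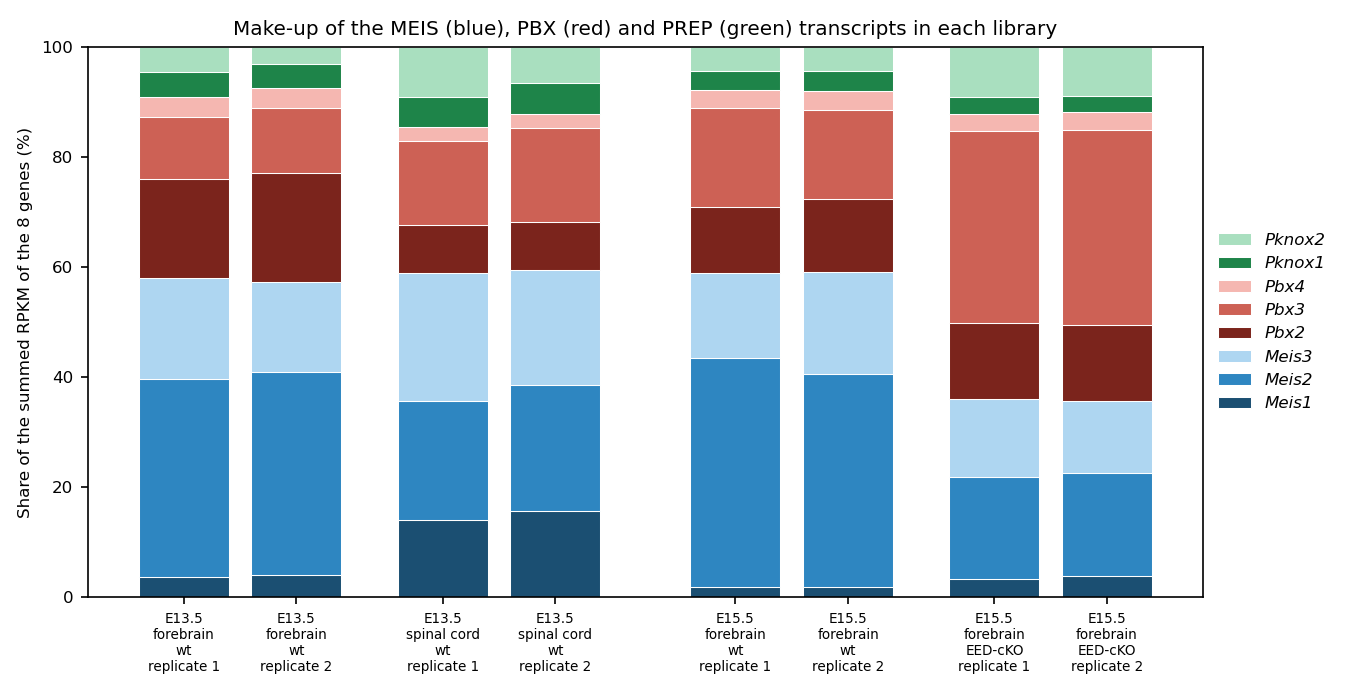
Share (%) of each gene in the summed RPKM of the 8 genes, as stacked bars for each library, with MEIS genes in blue, PBX genes in red and PREP genes in green. Blue reaches 57.3% to 59.4% in the 6 wt libraries and 35.7% to 36% in the EED-cKO libraries, where Pbx3 alone takes 34.8% and 35.4%.

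Other TALE genes, which are not HOX cofactors of this kind, also differed. Of 9 such genes 8 were tested, since Irx4, named here for its absence only, stayed below 1 RPKM. In EED-cKO 5 rose and 1 fell, where 30.2% of all tested genes were called higher and 16.7% lower. Their median change was 0.51, against 0.08 over all tested genes. Between the tissues 4 were higher and 2 lower in spinal cord, where 21.8% and 23.9% of all tested genes were. Tgif2, which encodes a repressor of TGF-beta and retinoic acid responses, fell in EED-cKO (log2 −0.81 ± 0.093, limma adjusted p = 6.5e-04) and was lower in spinal cord (−1.24 ± 0.093, adjusted p = 6.8e-05). Irx5, an Iroquois patterning factor, rose in EED-cKO from 2.9 and 2.4 RPKM to 6 and 7.2 (log2 1.06 ± 0.17, limma adjusted p = 0.00238) and was higher in spinal cord (1.09 ± 0.17, adjusted p = 0.00183).

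Of 39 Hox genes, 37 were tested. In EED-cKO 35 rose and none fell, and in spinal cord 26 were higher and none lower. Genes silent in wt forebrain enter the test only through the groups where they are on, so these counts favour a rise. Hoxb8 was at 7.1 and 5.9 RPKM in EED-cKO and was listed at 0 in wt at E15.5 in each library (limma adjusted p = 1.1e-05). Of all tested genes, 30.2% were called higher in EED-cKO and 21.8% in spinal cord. Of 7 genes of other PBX or MEIS partners, 5 were tested and all 5 rose in EED-cKO, while Pdx1 and Myod1 stayed below 1 RPKM. Here En2 entered the test only through EED-cKO, and Tlx1 and Tlx3 only through spinal cord and EED-cKO. The count of partner genes thus favours a rise as well. En1, a midbrain and hindbrain homeobox gene whose protein pairs with PBX, rose from 1 and 0.4 RPKM to 10.4 and 10.9 (log2 2.80 ± 0.17, limma adjusted p = 7.5e-05). Tlx3, a factor of dorsal spinal cord neurons, was at 7 and 6.3 RPKM in EED-cKO against 0.1 in both wt libraries, and at 69.7 and 60.7 in spinal cord against 0.1 in both forebrain libraries. Pbxip1, which encodes a protein that binds PBX and was singled out after its values were seen, rose from 8.5 and 5.9 RPKM to 21 and 23.7 in EED-cKO (log2 1.53 ± 0.17, limma adjusted p = 5.5e-04). It was not called between the tissues (log2 0.36 ± 0.17, limma adjusted p = 0.124).

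Genes of the ventral telencephalon and striatum, where Meis2 is known to be expressed, were mixed: of 19 tested, 9 fell and 4 rose in EED-cKO. Dlx1 fell from 50 and 52.6 RPKM to 20.6 and 13.6 (log2 −1.56 ± 0.17, limma adjusted p = 5.0e-04), and Dlx2 from 57.6 and 53 to 22.1 and 16 (−1.51 ± 0.14, adjusted p = 2.8e-04). Both encode homeobox factors of forebrain interneurons and striatal neurons. Bcl11b, a factor of striatal and deep-layer cortical neurons, fell from 71 and 54.7 RPKM to 19.7 and 20.9 (log2 −1.57 ± 0.12, limma adjusted p = 1.3e-04), a fall that the deposited row order does not show. Against these falls, 4 genes of the list rose, namely Zfp503 (log2 0.75), Zfp521 (0.73), Drd2 (0.46) and Six3 (0.42), which were looked up after the counts were known. Without EED-cKO replicate 2 the calls of Zfp521 (adjusted p = 0.0606), Drd2 (0.12) and Six3 (0.0788) were lost, and the rises of Zfp503 and Zfp521 are not seen in the deposited row order. Other E15.5 libraries also decided a call, namely wt replicate 2 for Zfp521 (0.0546) and Drd2 (0.0837) and EED-cKO replicate 1 for Six3 (0.0543). The median change of the 19 genes was −0.18, against 0.08 over all tested genes, of which 16.7% were called lower and 30.2% higher. The part of ventral telencephalon and striatum cells in the fall of Meis2 was not tested.

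Retinoic acid, which is made next to the spinal cord and is a known inducer of Meis genes, was covered by a list of 12 synthesis and response genes, of which 11 were tested. In EED-cKO forebrain 8 rose and 2 fell, and in spinal cord 9 were higher and 1 lower. Crabp1, a retinoic acid binding protein gene, rose from 32.5 and 44.9 to 166.1 and 153.3 RPKM in EED-cKO (log2 2.03 ± 0.15, limma adjusted p = 1.4e-04). In spinal cord it was at 281.5 and 286 RPKM against 44.1 and 36.2 in forebrain. Stra6, a retinol transporter gene, rose by 1.07 (SE 0.11) in EED-cKO and was higher by 1.62 (SE 0.11) in spinal cord on the log2 scale. Its rise in EED-cKO is not seen in the deposited row order. The part of retinoic acid in the changes of the Meis genes was not tested.

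Other cell types of the dissections moved with both comparisons. Of all tested genes, 21.8% were called higher in spinal cord and 23.9% lower. The spinal cord libraries held markers of sensory ganglia and neural crest, of which 5 of 5 tested were higher. The 6 genes of that list summed to 383.3 and 280.1 RPKM in spinal cord against 6.8 and 5 in forebrain. Prph, a filament gene of peripheral neurons, was at 202.4 and 158.3 RPKM. Pknox2, Meis3 and Pbx4 were higher in spinal cord replicate 1, which had the higher ganglion sum. Meis1, Meis2, Pbx2, Pbx3 and Pknox1 were higher in replicate 2. These are single libraries, which also differed in posterior Hox genes such as Hoxc10, so no conclusion is drawn from this order. In EED-cKO forebrain the ganglion sum was 12.5 and 15.1 RPKM against 10.3 and 8.1 in wt. All 6 pan-neuronal genes were higher in spinal cord, with a median change of 0.80 (Snap25 1.68 and Stmn2 1.09 on the log2 scale). Of 6 neural progenitor genes 5 were lower, with a median of −1.16, and 4 of 6 microglia and macrophage genes were higher. The part of ganglion cells, and of the balance of neurons and progenitors, in the spinal cord levels was not tested.

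In EED-cKO forebrain all 10 meninges and mesenchyme genes rose, where 30.2% of all tested genes were called higher and 16.7% lower. The sum of these 10 genes was 754.1 and 922 RPKM against 254.4 and 194.7 in wt. All 6 endothelial genes rose (238.4 and 244.6 RPKM in sum against 165.2 and 158.4), as did 5 of 6 microglia and macrophage genes (107.6 and 119.5 against 59 and 63.6). Skeletal muscle genes summed to 89.6 RPKM in EED-cKO replicate 2 and 6.4 in replicate 1. Meis1 was at 14.1 RPKM in replicate 2 and 11.7 in replicate 1, and without replicate 2 its change was 0.76. Pbx3 and Pknox2 changed by 1.04 and 1.03 without that replicate. These changes rest on a single EED-cKO library, so no conclusion about muscle is drawn from them. Neural progenitor genes were mixed, with 2 of 6 higher and 2 lower. Their sum was 944.9 and 954.2 RPKM in EED-cKO against 617.1 and 612.4 in wt. Without Vim, an intermediate filament gene also on in mesenchyme, it was 202.6 and 196.9 against 235.4 and 222.1. Vim was 1 of the 2 that rose (log2 0.96), so leaving it out favours a lower sum, and no conclusion is drawn. Of 6 pan-neuronal genes 1 rose (Snap25) and 2 fell (Tubb3 and Stmn2). The 6 genes summed to 3478 and 3340.8 RPKM in EED-cKO against 4314.9 and 4443.8 in wt, lower without overlap. Without the 2 that fell, the sum was 871.5 and 866.4 RPKM against 838.1 and 626.2. That choice of genes favours a sum that does not fall, so no conclusion is drawn from it. The Stmn2 call was lost without wt E15.5 replicate 2 (adjusted p = 0.0932) and without EED-cKO replicate 1 (0.0936) or 2 (0.163). Of 5 tested blood genes 1 was called, the globin gene Hbb-bt, at 5.9 and 8.1 RPKM in EED-cKO against 395.4 and 547.4 in wt (log2 −5.88 ± 0.21, limma adjusted p = 8.4e-06). The globin gene Hba-a1 was not called, at 3685 and 4045.4 RPKM against 2671.6 and 3607.5. The part of blood, skeletal muscle, mesenchymal, endothelial and immune cells in the rise of Meis1, Pbx3 and Pknox2 was not tested.

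Genes with the pattern most like that of a member were taken for the 4 members with a change of 1 or more (log2) in either comparison, as those with the highest Pearson r over the 8 libraries after the mean of each age was subtracted, among 10563 candidates. The libraries share their groups, so high r values are common, and r carries no test. For Meis1 these included Lbh (r = 0.998) and Hoxb6 (r = 0.996), which rose by 2.48 in EED-cKO and by 6.92 in spinal cord on the log2 scale, against 0.88 and 2.25 for Meis1. For Meis2 they included Phf20l1 (r = 0.999), with changes of −0.96 and −0.24, against −1.07 and −0.29 for Meis2, and its fall in EED-cKO is not seen in the deposited row order. For Pbx3 they were Reln, the gene of a secreted guidance protein of cortex and spinal cord (r = 0.999), Slc1a3, a glial glutamate transporter gene (r = 0.996), and Igfbp5 (r = 0.996). Reln changed by 1.08 in EED-cKO and 0.97 in spinal cord, close to the 1.05 and 0.89 of Pbx3. For Pknox2 they included Fah (r = 0.998), with smaller changes of 0.55 and 0.73.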

How the data were processed

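Dissected forebrain and spinal cord of mouse embryos gave total RNA, which was sequenced as single-end, unstranded reads of 50 bases on a HiSeq2500, per the labels' protocols. The table that the authors deposited gives RPKM, in multiples of 0.1, for 36333 rows named by gene symbol and 1 column per library. The builds mm9 and GRCm38 are named in the submitters' processing notes, without a role; aligner and counter are not given in the sources used here. Depth is unknown, since the table holds no counts, so no counting interval was computed.

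The E15.5 columns were matched to the names sorted alphabetically with case and hyphens ignored, which moved 23016 names. Where a symbol was listed more than once (9 symbols), its row of highest mean stood for it. The 17022 genes that reached 1 RPKM in 2 or more libraries were tested. A limma model (version 3.58.1, R 4.3.3) of log2(RPKM + 1) took 4 group means over the 8 libraries, which leaves 4 residual degrees of freedom, with an eBayes trend, two-sided p-values and Benjamini-Hochberg adjustment over these genes. The median SD between replicates, on the log2 scale, was 0.117 in wt E15.5 forebrain and 0.054 in EED-cKO forebrain. It was 0.058 in E13.5 forebrain and 0.049 in spinal cord. A pseudocount of 1 understates the fold of low genes. The test was checked on simulated data. The members and gene lists were chosen with earlier results of these data known. The rule named all 8 members, Eed, up to 3 called genes per list and comparison with the largest changes, the 3 Hox genes with the highest mean, and the 3 genes of most similar pattern. Same-numbered libraries had correlated deviations of −0.124 (E15.5) and 0.211 (E13.5). Gene positions are those of GENCODE M21 (GRCm38) and promoters those of RefSeq (GRCm38.p6). Tables were made with pandas 2.3.3 and numpy 2.4.6 in Python 3.11.15, and figures with matplotlib 3.10.9.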

Additional observations from a re-analysis of the deposited data

How the results depend on the processing

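Changes and counts in each comparison were recomputed under 17 other settings, the difference of the comparisons under 16, and the ratio of Hox to cofactor sums with libraries left out and with the deposited row order; the other sums and shares were not. In EED-cKO forebrain the calls of Meis1, Meis2, Pbx3 and Pknox2 held under all 17, and between the tissues those of Meis1, Meis3, Pbx2, Pbx3, Pknox1 and Pknox2 did. Genes called in EED-cKO numbered 7987, 4777 with only the 4 libraries compared, and 4929 with same-row genes only, which tests fewer genes. Leaving out 1 library gave 4468 (EED-cKO replicate 2) to 9580 (wt E15.5 replicate 1), and 5078 without EED-cKO replicate 1. Between the tissues 7784 genes were called, 4792 with same-row genes only, and 5176 (without forebrain replicate 2) to 9309 with 1 library left out. Of the EED-cKO calls 64.5% were higher, 48.8% after median ratio scaling and 45.1% after quantile normalization, where the median change of all genes moved from 0.08 to −0.01 and −0.05. The Pbx4 change in EED-cKO turned positive without wt E15.5 replicate 2 (0.03) and without EED-cKO replicate 1 (0.04). In the difference of the comparisons, quantile normalization turned Pbx3 to −0.01 and Pbx4 to −0.07. With the deposited row order Bcl11b was at 0.19, Stra6 at −0.15, Aldh1a2 at −0.48, Zfp521 at −0.08 and Phf20l1 at 0.08 in EED-cKO. The labels' replicate numbers share no stated source. With a replicate block 6657 genes were called in EED-cKO and 6702 between the tissues, and of the members' calls Pknox1 was lost and the Pknox2 difference gained. Crossed E15.5 numbers, added after seeing the data, gave 8045 genes and 6 members in EED-cKO. The 1-row shift of the E15.5 values served as a check of the match and gave correlations only.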
